A study of Mus musculus with 20 samples.

Results

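Expression differences between a pair of Trim33 knockout lines, Trim33-KO1 and Trim33-KO2, were examined across all 13107 genes counted. Both were made with CRISPR guides against Trim33 in p19/Nras, a line grown from a liver tumor that Nras had induced in mice without p19Arf. Each line was profiled by RNA-seq with an empty Ctrl vector (pWZL) and with a vector for Myc, so that the comparison rests on 8 of the 20 libraries of the series, 2 for each line and vector. The 4 libraries of Trim33-WT cells, which carry a control guide and the same vectors, served as a reference level and in the estimate of the spread. The p19Arf loss and the Nras transgene are shared by all these groups, and the cells had no drug treatment. Which guide made which line, and whether a line is 1 clone, are not given in the sources used here, and 1 line of each name was profiled, so that a difference between the lines cannot be told apart from clone-to-clone variation. The 8 libraries held 15084070 to 17949430 counts. Nothing in the labels says that the replicates were separate cultures, and p-values then measure only the spread between these libraries, which may be technical.

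Trim33 (TIF1-gamma) is a RING ubiquitin ligase of the TIF1 family with a PHD finger and bromodomain that read histone tails, and it is known for limiting Smad4-dependent TGF-beta and BMP signaling. Its relatives Trim24 and Trim28 are transcriptional cofactors, and Trim28 is recruited by KRAB zinc finger proteins to silence repeats. Lines derived separately from a tumor line can also differ in gene dosage and in silenced genes, apart from the edited locus.

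Trim33 mRNA, the targeted transcript (chr3:103083216-103162691, mm9), was lowest in the libraries labelled KO1 Ctrl and KO2 Myc. Its levels were 122 and 130 counts scaled to the library total (CPM) in KO1 Ctrl against 204 and 210 CPM in KO2 Ctrl, and 236 and 247 CPM in Trim33-WT with the same vector. With the Myc vector the order of the lines was the other way round, with 186 and 195 CPM in the libraries labelled KO1 Myc, 125 and 126 CPM in those labelled KO2 Myc, and 132 and 158 CPM in Trim33-WT. The KO1 minus KO2 difference in log2FC was -0.68 (SE 0.0693, adjusted p = 1.41e-06) with Ctrl and 0.60 (SE 0.0689, adjusted p = 4.97e-06) with Myc. The change of this difference between the vectors was 1.29 (adjusted p = 2.32e-08). Trim33 protein was not analysed here, and an edited gene can still give mRNA.

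The transcriptomes as a whole were arranged in the same way, across the labels. Over 10439 genes the root mean square difference in log2 expression was 0.395 between KO1 Ctrl and KO2 Myc and 0.404 between KO2 Ctrl and KO1 Myc. It was larger between libraries that bear the same line name, at 0.546 for KO1 and 0.601 for KO2. At an adjusted p under 0.01, the Myc and Ctrl libraries of the same label differed in 36.1% of genes for KO1 and 38.8% for KO2. The share was 29.5% between KO1 Myc and KO2 Ctrl and 28.8% between KO2 Myc and KO1 Ctrl. Which labels name which line cannot be told apart here, so the groups are called here by their labels, each vector is reported separately, and every direction with Myc is that of the libraries as labelled.

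With the Ctrl vector, 2398 of the 13107 genes differed between KO1 and KO2, or 18.3%. Of these, 1306 were higher in KO1 (9.96% of genes tested) and 1092 higher in KO2 (8.33%). The share of called genes that were higher in KO1 was 54.5%, and it was 48% when counts were scaled by library totals only and 43.6% among the genes with an absolute log2FC of at least 1, so that neither line had more of the higher genes under every setting. The differences were mostly moderate, with a median absolute log2FC of 0.56 (interquartile range 0.36 to 1.08), and 654 genes (4.99%) differed by an absolute log2FC of at least 1. The CPM values of the lines did not overlap in any of the 2398 genes. With 2 libraries a group a call nearly requires this, so it adds no support, and the share over all genes was not counted. Leaving out any one of the 4 Ctrl libraries of the lines lowered the count to between 1383 and 1475, without KO1 Ctrl replicate 1 (1383), replicate 2 (1475), KO2 Ctrl replicate 1 (1452) or replicate 2 (1458).

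With the Myc vector, 2423 genes differed between the libraries labelled KO1 and KO2 (18.5%), 1198 higher in KO1 (9.14%) and 1225 higher in KO2 (9.35%), and 719 of them (5.49%) by an absolute log2FC of at least 1. The count was 1519 without KO1 Myc replicate 1 and 1574 without KO2 Myc replicate 1. The 1225 became 658, 795 and 789 without KO1 Myc replicate 1, KO1 Myc replicate 2 and KO2 Myc replicate 1, and the 1198 became 785 without the last of these. Without KO1 Myc replicate 1 the share higher in KO1 was 56.7%, against 49.4% with all libraries. The comparisons share 1301 genes, which are 54.3% of the genes that differed with Ctrl and 53.7% of those that differed with Myc. Of the shared genes, 1265 (9.65% of genes tested) differed in opposite directions and 36 (0.275%) in the same direction. The difference between the vectors was itself called in 3453 genes (26.3%). They include all 1265 genes of opposite direction, which follows from how these were chosen, since 2 called differences of opposite sign add up. Of the 654 genes with an absolute log2FC of at least 1 with Ctrl, 635 (97.1%) had a fitted log2FC of the opposite sign with Myc, beside 86.9% of all genes called with Ctrl and 66% of all genes tested. Across the 13107 genes the log2FC with Ctrl and with Myc had a Pearson r of -0.732 and a Spearman rho of -0.508, given as a description, since genes are not replicates and the fits share one estimate of the spread. In the mean of both vectors, where opposite differences cancel, 474 genes (3.62%) were called.

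**Figure D1:**
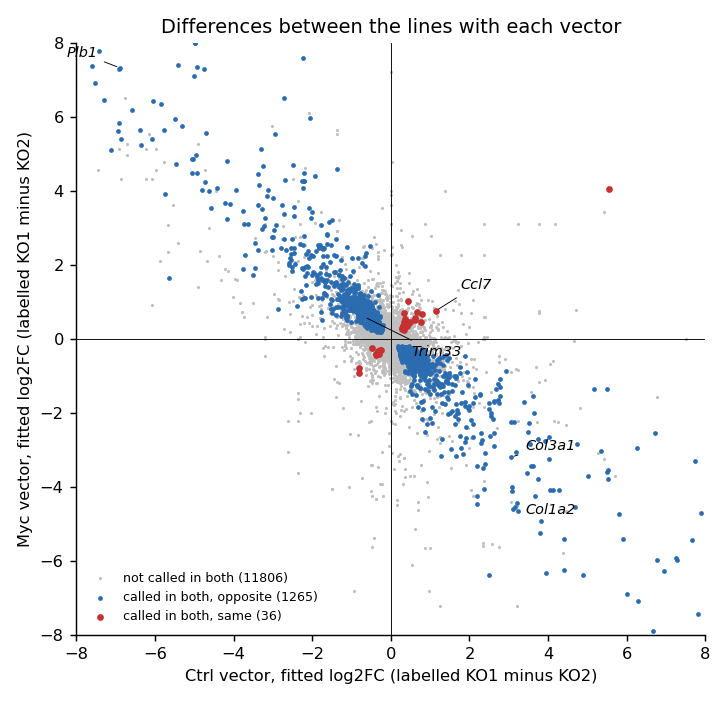
Fitted log2FC of KO1 minus KO2 with the Ctrl vector (x axis) against that with the Myc vector (y axis) for 13107 genes, with the 1265 genes called in opposite directions in blue, the 36 called in the same direction in red and all others in grey, and 21 genes beyond the axis limits not shown. The blue points run from the upper left to the lower right, and the red points lie on the other diagonal.

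A set of genes was near 0 in one line and expressed in the other. With Ctrl, 7 genes had at most 3 counts in each KO2 library and a mean of at least 5 CPM in KO1, and 8 genes had the reverse pattern. With Myc, 4 genes were near 0 in KO2 and 5 in KO1. Sis, the sucrase-isomaltase of the intestinal brush border, was detected in KO1 Ctrl and KO2 Myc alone. It had 7.26 and 7.16 CPM in KO1 Ctrl, 4.42 and 4.74 CPM in KO2 Myc and 0 counts in the other 8 libraries, at least 36.3-fold higher in KO1 with Ctrl at a bound of 3 counts per library.

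Other genes of this direction were receptors and channels. Gfra2, a GDNF-family co-receptor, had 9.5 and 10.6 CPM in KO1 Ctrl and 0 counts in KO2 Ctrl, at least 50.6-fold higher, and Trim33-WT cells lay between with 1.83 and 1.96 CPM. Itgb3, the integrin beta 3 chain, had 206 and 164 counts in KO1 Ctrl against 3 and 3 in KO2 Ctrl, a ratio of 61.3 (95% exact counting interval 27.9 to 168). Scn3a, a voltage-gated sodium channel subunit, had 81 and 101 counts in KO1 Ctrl against 0 and 1 in KO2 Ctrl, a ratio of 181 (32.1 to 7190). Scn3a reached 392 and 384 counts in KO2 Myc, where KO1 Myc had 1 and 0. Pde4b, a cAMP phosphodiesterase, had 8.05 and 8.21 CPM in KO1 Ctrl and 1 and 0 counts in KO2 Ctrl, a ratio of 246 (43.7 to 9740). These genes were chosen as near 0 in one line and expressed in the other, so the gap between the lines is no added support. Counting intervals cover counting error only.

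In the reverse direction, most genes near 0 in KO1 Ctrl were present in Trim33-WT cells. Rragb, a Rag GTPase that signals amino acid supply to mTORC1, had 1 and 2 counts in KO1 Ctrl against 112 and 97 in KO2 Ctrl, a ratio of 70.1 (23.6 to 342), and 9.29 and 9.63 CPM in Trim33-WT. With Myc it had 0 counts in the libraries labelled KO2 and 8.52 and 8.02 CPM in those labelled KO1, at least 47.9-fold higher in KO1. Slc9b1, a sodium/proton exchanger, had 2 and 3 counts in KO1 Ctrl against 159 and 146 in KO2 Ctrl, a ratio of 61.3 (26 to 190). Its level in Trim33-WT, 23.1 and 23.9 CPM, was above both lines. Pnma3, of a family of genes derived from a retrotransposon gag gene, had 1 and 1 counts in KO1 Ctrl against 206 and 186 in KO2 Ctrl, a ratio of 197 (54.2 to 1630). Nlrp4c had 3 and 1 counts against 225 and 193, a ratio of 105 (40.7 to 387), and Nlgn1, Trpc5os and Tshz2 had ratios of 129 (35.3 to 1070), 158 (43.3 to 1310) and 39.0 (16.4 to 122). Flt4, the VEGFR-3 receptor, stood apart, with 5.04 and 5.09 CPM in KO2 Ctrl, 3.44 and 3.07 CPM in KO1 Myc and 0 counts in all 4 Trim33-WT libraries.

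**Figure D2:**
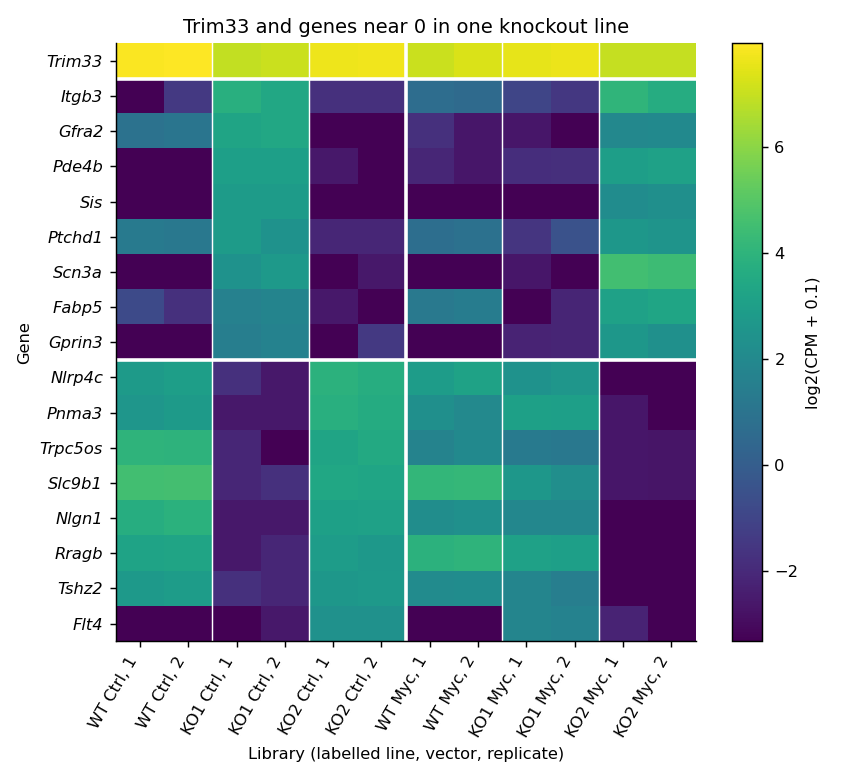
Level of Trim33 and of 16 of the 17 genes near 0 in one knockout line, as log2(CPM + 0.1) in colour, in each of the 12 libraries (columns, by labelled line, vector and replicate). The first block of genes below Trim33 is bright in KO1 Ctrl and KO2 Myc, and the second block is dark in those same libraries and bright in KO2 Ctrl and KO1 Myc.

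The start windows of these genes held a lower median number of CpG than those of all genes, CpG being the dinucleotide at which mammalian DNA is methylated. In the RefSeq windows of 300 bases (250 before and 50 after a start, GRCm38.p6, a different build from the mm9 gene positions above), 12 of the 17 genes had 16 windows with a median of 6.5 CpG, and 37.5% of the windows held at most 5. Over the 9686 genes with a window the median of 12317 windows was 20 CpG, and 12.7% held at most 5. Windows with at least 15 CpG were 25% for the genes near 0 in one line and 67.6% over all genes. The 17 genes were chosen by their low counts in one line, and the genes set beside them were not matched for expression level. Whether the lower CpG number goes with that choice was not tested. Windows are not independent, since a gene with several weighs more, such as Pde4b with windows of 8, 2, 1 and 6 CpG. CG reads the same on both strands, and methylation was not measured. The windows of Sis and Rragb are shown because they hold few and many CpG among genes near 0 in one line, 1 and 18, each in capitals:
Sis, chr3:72967814-72968113, minus strand: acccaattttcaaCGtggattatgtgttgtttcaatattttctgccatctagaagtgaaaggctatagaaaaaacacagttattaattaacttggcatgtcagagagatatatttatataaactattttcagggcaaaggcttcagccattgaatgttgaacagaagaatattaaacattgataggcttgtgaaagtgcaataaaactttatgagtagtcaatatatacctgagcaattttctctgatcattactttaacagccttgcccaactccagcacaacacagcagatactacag
Rragb, chrX:153139708-153140007, plus strand: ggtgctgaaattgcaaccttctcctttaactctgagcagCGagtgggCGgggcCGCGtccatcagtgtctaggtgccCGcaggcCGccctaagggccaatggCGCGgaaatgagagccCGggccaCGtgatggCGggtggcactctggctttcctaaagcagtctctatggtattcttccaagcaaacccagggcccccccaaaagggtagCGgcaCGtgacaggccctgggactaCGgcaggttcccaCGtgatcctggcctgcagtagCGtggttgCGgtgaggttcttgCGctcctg

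Several of the largest differences with higher levels in KO2 Ctrl fell in families of neighbouring genes. Rex2, Zfp600, Zfp980, Zfp987 and Zfp534, KRAB zinc finger genes of the distal chromosome 4 cluster, were nearly silent in KO1 Ctrl and KO2 Myc. Rex2 had 4.16 and 5.06 CPM in KO1 Ctrl against 153 and 158 CPM in KO2 Ctrl, with 259 and 247 CPM in Trim33-WT (log2FC -5.05, SE 0.0965, adjusted p = 1.43e-15). With Myc it had 102 and 108 CPM in KO1 and 3.10 and 4.07 CPM in KO2 (log2FC 4.86, adjusted p = 3.93e-15). The log2FC with Ctrl and with Myc was -4.94 and 4.49 for Zfp600, -4.96 and 4.97 for Zfp980, -4.61 and 4.01 for Zfp987, and -4.41 and 4.09 for Zfp534. Entrez gene 19715, which has no symbol in the table, followed Rex2 closely, with log2FC of -5.06 and 4.87. These genes resemble one another in sequence, so that reads may be split between copies and the values of single members are uncertain. Of all 345 genes with a Zfp symbol, 33 (9.57%) were higher in KO2 Ctrl, near the 8.33% of all genes. Higher in KO1 Ctrl were 9 (2.61%, below the 9.96% of all genes), with a median log2FC of -0.03, so that most genes of this kind did not pass. With Myc 24 (6.96%) were higher in KO1 and 8 (2.32%) in KO2, beside 9.14% and 9.35% of all genes. The 8 became 3 without KO1 Myc replicate 1 or KO2 Myc replicate 1. The 9 became 2, 2, 3 and 5 without KO1 Ctrl replicate 1 and 2 and KO2 Ctrl replicate 1 and 2.

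The start windows of the cluster resembled one another to different degrees. Rex2 and Zfp600 (first window) were identical in 299 of 301 aligned columns (99.3%), Rex2 and Zfp980 in 88.6%, Rex2 and Zfp987 in 80.0%, and Rex2 and Zfp534 in 73.9%. The second window of Zfp600 was identical to that of Rex2 in 51.0%. All 6 windows of the 5 genes held between 1 and 5 CpG, in capitals here, and the windows of Rex2, Zfp980 and Zfp987 are printed because these genes moved together:
Rex2, chr4:147021600-147021899, plus strand: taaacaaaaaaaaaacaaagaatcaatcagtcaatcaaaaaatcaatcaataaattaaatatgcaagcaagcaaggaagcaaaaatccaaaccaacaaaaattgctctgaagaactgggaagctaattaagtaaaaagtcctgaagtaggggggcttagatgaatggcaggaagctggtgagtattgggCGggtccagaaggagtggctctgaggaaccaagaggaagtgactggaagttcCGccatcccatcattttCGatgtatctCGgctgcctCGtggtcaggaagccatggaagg
Zfp980, chr4:145670447-145670746, plus strand: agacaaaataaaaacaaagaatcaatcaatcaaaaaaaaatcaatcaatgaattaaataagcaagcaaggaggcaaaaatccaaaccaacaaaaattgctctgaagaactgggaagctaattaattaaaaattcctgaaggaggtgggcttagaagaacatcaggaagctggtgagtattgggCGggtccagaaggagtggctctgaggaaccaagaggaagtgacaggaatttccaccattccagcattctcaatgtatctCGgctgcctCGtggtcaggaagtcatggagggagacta
Zfp987, chr4:146097062-146097361, plus strand: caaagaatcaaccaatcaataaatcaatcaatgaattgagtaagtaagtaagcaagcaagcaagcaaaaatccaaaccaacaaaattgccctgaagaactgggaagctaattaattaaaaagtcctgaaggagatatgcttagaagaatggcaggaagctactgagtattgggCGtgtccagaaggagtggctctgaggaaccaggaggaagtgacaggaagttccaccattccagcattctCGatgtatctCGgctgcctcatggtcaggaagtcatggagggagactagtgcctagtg

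The Naip genes on chromosome 13, cytosolic receptors for bacterial flagellin and secretion-system proteins, formed a second such family. All 4 measured members were higher in KO2 Ctrl and in KO1 Myc, beside 8.33% and 9.14% of all genes, also without any one library. Naip1 had 0.330 and 0.197 CPM in KO1 Ctrl and 21.9 and 23.5 CPM in KO2 Ctrl, with 33.4 and 34.9 CPM in Trim33-WT (log2FC -6.36, SE 0.251, adjusted p = 1.36e-11). With Myc the log2FC of Naip1 was 5.24 (SE 0.297, adjusted p = 1.18e-09). Naip6 and Naip2 had log2FC of -5.06 and -2.98 with Ctrl and 4.48 and 2.96 with Myc. Naip genes are close copies of each other, and reads may be shared between them.

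Among single genes, Plb1, a phospholipase B, was nearly absent from one line with each vector. It had 0.528 and 0.657 CPM in KO1 Ctrl and 70.8 and 73.7 CPM in KO2 Ctrl, against 140.5 and 157 CPM in Trim33-WT (log2FC -6.88, SE 0.200, adjusted p = 3.11e-13). With Myc it had 55.6 and 58.8 CPM in KO1 and 0.418 and 0.279 CPM in KO2 (log2FC 7.33, SE 0.217, adjusted p = 4.07e-13). Pnma5, a neighbour and relative of Pnma3 on chromosome X, had log2FC of -6.05 and 6.44, and Nxf3, a member of the mRNA export factor family, -4.70 and 5.58. The noncoding RNA Lncenc1 had 11.9 and 12.5 CPM in KO1 Ctrl and 226.5 and 222 CPM in KO2 Ctrl (log2FC -4.17, with Myc 4.82). Cd177, Aqp8 and Gm364 had log2FC of -4.74, -3.37 and -2.24 with Ctrl and 4.25, 4.46 and 4.10 with Myc. The groups did not overlap in any of these genes with either vector. Lack of overlap was a condition for naming the largest differences, so it is no added support.

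The named genes higher in KO1 Ctrl had varied roles. Ptk7, a pseudokinase of planar cell polarity, had 13.9 and 13.9 CPM in KO1 Ctrl and 0.265 and 0.330 CPM in KO2 Ctrl (log2FC 5.53, SE 0.220, adjusted p = 1.46e-11), and Trim33-WT cells had 11.7 and 12.4 CPM, close to KO1. Igf2bp3, an oncofetal mRNA-binding protein, had 23.5 and 24.8 CPM in KO1 Ctrl and 0.796 and 1.72 CPM in KO2 Ctrl (log2FC 4.28, with Myc -4.10). Ank2, ankyrin-B, had log2FC of 4.74 and -2.84. A further set was low in Trim33-WT as well as in KO2 Ctrl. Bicc1, an RNA-binding protein, had 18.1 and 15 CPM in KO1 Ctrl, 0.729 and 0.859 CPM in KO2 Ctrl and at most 0.0655 CPM in Trim33-WT Ctrl (log2FC 4.40, with Myc -6.25). Prelp, a matrix proteoglycan, and Clca3a1 had log2FC of 5.34 and 5.02 with Ctrl and -3.02 and -3.70 with Myc. Adgrg6, an adhesion GPCR, had log2FC of 3.11 and -4.61, and Pcdhb14, a clustered protocadherin, 3.92 and -2.76. Lcn2, a siderophore-binding acute-phase protein, had 14.6 and 21.4 CPM in KO1 Ctrl and 0.398 and 0.396 CPM in KO2 Ctrl (log2FC 5.5), and 4.34 and 4.45 CPM in Trim33-WT, and its difference with Myc was -1.36. Pilra, an inhibitory immune receptor, had log2FC of 3.92 with Ctrl, and its difference with Myc did not pass (-1.11, adjusted p = 0.0171).

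Collagen genes were mostly higher in KO1 with Ctrl and lower with Myc. Among 22 collagen genes, 13 (59.1%) were higher in KO1 Ctrl and 1 (4.55%), Col6a3, higher in KO2 Ctrl, where 9.96% and 8.33% of all genes were called. Their median log2FC was 0.74, and the median over all genes was 0.02. With Myc 14 (63.6%, beside 9.35% of all genes) were higher in KO2, with a median of -1.18 against 0.00 over all genes. Higher in KO1 were 2, Col6a3 and Col8a1 (9.09%, near the 9.14% of all genes). The 2 fell to 1 without KO1 Myc replicate 2, KO2 Myc replicate 1 or KO2 Myc replicate 2. Col1a2, the alpha 2 chain of type I collagen, had 140 and 141 CPM in KO1 Ctrl and 17.5 and 14.8 CPM in KO2 Ctrl (log2FC 3.15, SE 0.0755, adjusted p = 2.2e-14), with 126 and 124 CPM in Trim33-WT. With Myc it had 3.80 and 3.95 CPM in KO1 and 91.8 and 87.6 CPM in KO2 (log2FC -4.53, SE 0.0954, adjusted p = 3.93e-15). Col3a1, the chain of type III collagen, took another order, with Trim33-WT lowest at 5.97 and 5.31 CPM, KO2 Ctrl at 45.3 and 39.3 CPM and KO1 Ctrl at 367 and 318 CPM (log2FC 3.05, with Myc -3.20). Col1a1 and Col12a1 had log2FC of 1.88 and 1.83 with Ctrl and -2.79 and -3.10 with Myc. With Ctrl, Col1a2 was thus below Trim33-WT in KO2, and Col3a1 was above Trim33-WT in both lines.

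Non-collagen matrix genes moved with them. Of 43 matrix glycoproteins and remodeling enzymes, 22 (51.2%, beside 9.96% of all genes) were higher in KO1 Ctrl and 0 in KO2 Ctrl. The median log2FC was 0.37, and 0.35 with 1 gene at 0 counts set to its bound. With Myc 24 (55.8%) were higher in KO2 and 2 (4.65%) in KO1, beside 9.35% and 9.14% of all genes (median -0.52). The 2 became 1 without KO2 Myc replicate 1. Fn1, fibronectin, had 4428 and 4538 CPM in KO1 Ctrl and 1777 and 2045 CPM in KO2 Ctrl, with 3224 and 3241 CPM in Trim33-WT between them (log2FC 1.26, SE 0.0780, adjusted p = 3.96e-09, with Myc -0.51). Timp3, an inhibitor of metalloproteinases, had log2FC of 0.78 and -1.71, and Bgn, the proteoglycan biglycan, 0.74 and -1.10. Of 23 mesenchymal genes 12 (52.2%) were higher in KO1 Ctrl and 12 (52.2%) higher in KO2 Myc, beside 9.96% and 9.35% of all genes, with none called the other way. Mgp, a matrix protein that limits calcification, had log2FC of -4.29 with Myc (12.8 and 12.3 CPM in KO2, 0.642 and 0.627 CPM in KO1), and its difference of 0.95 with Ctrl did not pass (adjusted p = 0.0427).

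The fibroblast and stellate marker list overlaps these genes. Its 9 measured members summed to 733 to 807 CPM in KO1 Ctrl and 734 to 747 CPM in KO2 Myc, against 195 to 214 CPM in KO2 Ctrl and 115 to 123.2 CPM in KO1 Myc, and 190 to 238 CPM in Trim33-WT. Of the 9, 6 (66.7%, beside 9.96% of all genes) were higher in KO1 Ctrl and 1 (11.1%, beside 8.33%) in KO2 Ctrl. Pdgfrb, a receptor of mesenchymal cells, had 190 and 168 CPM in KO1 Ctrl and 108 and 99.6 CPM in KO2 Ctrl (log2FC 0.81), and 15.6 and 16.2 CPM in Trim33-WT. Acta2, smooth muscle actin, was at most 4.02 CPM in any library, with 4.02 and 3.09 CPM in KO1 Ctrl and 0.332 and 0.198 CPM in KO2 Ctrl. With Myc it had 0.175 and 0.125 CPM in KO1 and 1.97 and 2.40 CPM in KO2. Of 28 hepatocyte markers, 6 were measured, and 3 were fitted higher in each line with Ctrl. Of the 6, 1 was called with Ctrl, the fetal marker Afp, higher in KO2 (16.7%, beside 8.33% of all genes). Afp had 8.69 and 8.26 CPM in KO2 Ctrl, 0.792 and 0.920 CPM in KO1 Ctrl and 31.7 and 29.0 CPM in Trim33-WT, and the defining markers Alb, Ttr, Apoa1 and Hnf4a were not analysed here. The 6 markers summed to 57.2 and 61.1 CPM in KO1 Ctrl and 68.0 and 65.8 CPM in KO2 Ctrl. Of 8 bile duct and progenitor markers, 1 (12.5%) was higher in KO1 Ctrl and 3 (37.5%) in KO2 Ctrl, beside 9.96% and 8.33% of all genes (median 0.16). Among the latter was the keratin Krt19 (log2FC -1.28, with Myc 1.47). The 8 markers summed to 3009 and 2960 CPM in KO1 Ctrl and 2764 and 2838 CPM in KO2 Ctrl. The 2 measured immune markers summed to 52.5 and 43.9 CPM in KO1 Ctrl and 34 and 31.1 CPM in KO2 Ctrl, and the 3 endothelial markers to 3.89 to 5.63 CPM over the 8 libraries. The part of other cell types in the matrix difference was not tested.

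**Figure D3:**
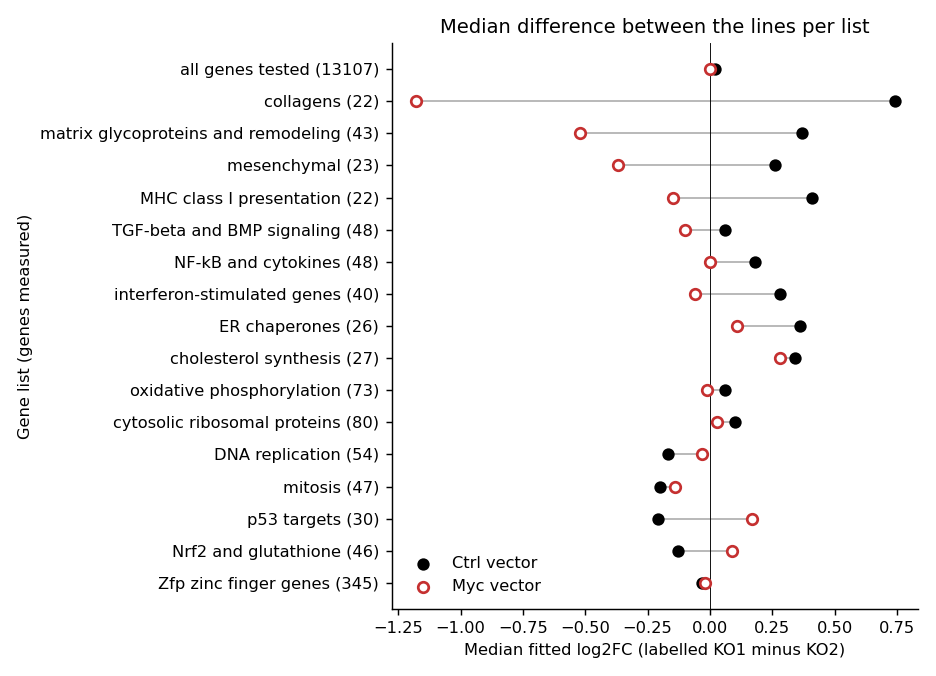
Median fitted log2FC of KO1 minus KO2 over the measured members of each gene list (numbers in brackets), with the Ctrl vector as filled dark circles and the Myc vector as open red circles. Collagens lie at 0.74 with Ctrl and -1.18 with Myc, p53 targets cross zero the other way, and cholesterol synthesis stays above zero with both vectors. ER chaperones (0.36 and 0.11) and cytosolic ribosomal proteins (0.10 and 0.03) also stay above zero. Mitosis (-0.20 and -0.14) and DNA replication (-0.17 and -0.03) are among the lists below zero with both.

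Secretory chaperones and antigen presentation were also higher in KO1 Ctrl. Of 26 ER chaperones and stress genes, 17 (65.4%, beside 9.96% of all genes) were higher in KO1 and 0 in KO2. Their median log2FC was 0.36, and all 26 were fitted above 0. Hsp90b1, the ER chaperone GRP94, had 2054 and 2009 CPM in KO1 Ctrl and 1192 and 1208 CPM in KO2 Ctrl (log2FC 0.79, SE 0.0485, adjusted p = 3.78e-09), and the difference with Myc was -0.43. Sdf2l1 had log2FC of 0.97 with Ctrl. With Myc 3 of the list (11.5%, near the 9.14% of all genes) were higher in KO1 and 1 (3.85%, beside 9.35%) in KO2 (median 0.11). The 3 became 1 without KO1 Ctrl replicate 1 or 2, KO1 Myc replicate 1 or 2, or KO2 Myc replicate 1. Of 22 genes of MHC class I presentation, 9 (40.9%, beside 9.96% of all genes) were higher in KO1 Ctrl and 0 in KO2 Ctrl (median 0.41). With Myc 5 (22.7%, beside 9.35% of all genes) were higher in KO2 and 0 in KO1. The 5 became 3 without KO2 Myc replicate 1. H2-K1, a classical class I heavy chain, had 22.1 and 21.3 CPM in KO1 Ctrl and 7.29 and 6.67 CPM in KO2 Ctrl (log2FC 1.66, SE 0.110, adjusted p = 9.65e-09), below Trim33-WT at 49.0 and 47.3 CPM in both lines, and -1.07 with Myc.

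Genes higher in KO2 Ctrl included p53 targets and oxidative stress genes. Of 30 p53 targets, 12 (40%) were higher in KO2 Ctrl, beside 8.33% of all genes, and 3 (10%) in KO1 Ctrl, near the 9.96% of all genes (median log2FC -0.21). With Myc 9 (30%) were higher in KO1, beside 9.14% of all genes, and 2 (6.67%) in KO2, beside 9.35% (median 0.17). The 12 became 5 without KO1 Ctrl replicate 1 and 6 without KO2 Ctrl replicate 1, and the 3 became 1 without KO1 Ctrl replicate 1, KO2 Ctrl replicate 1 or KO2 Ctrl replicate 2. Eda2r, a death-domain TNF receptor, had 6.13 and 5.71 CPM in KO1 Ctrl and 36.0 and 36.5 CPM in KO2 Ctrl (log2FC -2.58, SE 0.139, adjusted p = 8.03e-10, with Myc 2.06). Gdf15, a stress cytokine, had log2FC of -1.06 and 0.79, although both lines with Ctrl, at 32.4 to 70.5 CPM, were far below Trim33-WT at 826 and 810 CPM. Btg2 went against the list, with log2FC of 0.60 and -1.11. Trp53 mRNA itself did not pass with either vector (-0.07 and -0.10). 

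Of 46 Nrf2 and glutathione genes, 15 (32.6%) were higher in KO2 Ctrl and 7 (15.2%) in KO1 Ctrl, beside 8.33% and 9.96% of all genes (median log2FC -0.13). With Myc 13 (28.3%) were higher in KO1 and 3 (6.52%) in KO2, beside 9.14% and 9.35% of all genes (median 0.09). The 7 became 4 without KO1 Ctrl replicate 1 or 2 or KO2 Ctrl replicate 2, and the 3 became 1 without KO1 Myc replicate 1. Nqo1, a quinone reductase, had 4.49 and 4.47 CPM in KO1 Ctrl and 34.9 and 31.9 CPM in KO2 Ctrl (log2FC -2.87, SE 0.138, adjusted p = 1.86e-10, with Myc 0.80). Akr1c13, an aldo-keto reductase, had log2FC of -1.42 and 1.82. Sod3, the extracellular superoxide dismutase, went the other way, at 3.54 and -2.83.

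Of 48 genes of TGF-beta and BMP signaling, the pathway Trim33 is known to limit, 12 (25%) were higher in KO1 Ctrl, beside 9.96% of all genes, with a median log2FC of 0.06. With Myc 16 (33.3%) were higher in KO2, beside 9.35% of all genes (median -0.10). The 4 higher in KO2 Ctrl and the 4 higher in KO1 Myc were each 8.33% of the list, near the shares over all genes (8.33% and 9.14%). The 12 became 7 without KO2 Ctrl replicate 2, and the 4 with Ctrl became 1 without KO1 Ctrl replicate 1 and 2 without KO2 Ctrl replicate 1. With Myc the 4 became 2 without KO1 Myc replicate 2 or KO2 Myc replicate 2, and the 16 became 10 without KO1 Myc replicate 1. Ltbp4, which holds latent TGF-beta in the matrix, had 70.8 and 68.6 CPM in KO1 Ctrl and 37.8 and 35.4 CPM in KO2 Ctrl (log2FC 0.96, with Myc -0.92), where Trim33-WT had 40.0 and 42.5 CPM. Tgfbi, a matrix protein induced by TGF-beta, had log2FC of 1.04 and -0.68.

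Proliferation genes were more often higher in KO2 Ctrl than all genes were (8.33%). Of 47 mitosis genes, 20 (42.6%) were higher in KO2 Ctrl and 0 in KO1 Ctrl (median log2FC -0.20). With Myc 7 (14.9%, beside 9.35% of all genes) were higher in KO2 and 1, Foxm1, higher in KO1 (median -0.14). The 20 fell to 7, 10, 8 and 9 without KO1 Ctrl replicate 1 and 2 and KO2 Ctrl replicate 1 and 2, and the 7 to 3 without KO1 Myc replicate 1 or KO2 Myc replicate 1. Foxm1, a driver of mitotic transcription, had 163 and 170 CPM in KO1 Ctrl and 251 and 255 CPM in KO2 Ctrl (log2FC -0.58, SE 0.0654, adjusted p = 4.97e-06, with Myc 0.41). Nuf2 and Ndc80, kinetochore subunits, differed with Myc (-0.60 and -0.48), and their differences with Ctrl were 0.02 and 0.01 and did not pass. Of 54 DNA replication genes, 16 (29.6%) were higher in KO2 Ctrl and 2 (3.7%, beside 9.96% of all genes) in KO1 Ctrl (median -0.17). With Myc 5 were higher in KO2 (9.26%, near the 9.35% of all genes) and 0 in KO1 (median -0.03). The 16 became 7, 9, 9 and 7 and the 2 became 0 without KO1 Ctrl replicate 1 and 2 and KO2 Ctrl replicate 1 and 2. The 5 became 3 without any one of these and 2 without any one of the Myc libraries of the lines. Rrm2, a ribonucleotide reductase subunit, had log2FC of -0.52 with Ctrl, and 0.18 with Myc, which did not pass.

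Cholesterol synthesis genes kept the direction of the label with both vectors. Of 27 genes, 15 (55.6%) were higher in KO1 Ctrl and 13 (48.1%) in KO1 Myc, beside 9.96% and 9.14% of all genes. With either vector 0 were higher in KO2 (median log2FC 0.34 with Ctrl and 0.28 with Myc). The list held 8 genes called in the same direction with both vectors and 0 called in opposite directions, beside 36 and 1265 over all genes. The 15 fell to 8, 9, 9 and 8 without KO1 Ctrl replicate 1 and 2 and KO2 Ctrl replicate 1 and 2, and the 13 fell to 8 without KO1 Myc replicate 2 and to 3, with 1 higher in KO2, without KO2 Myc replicate 2. Msmo1, a sterol demethylating oxidase, had 333 and 321 CPM in KO1 Ctrl and 253 and 254 CPM in KO2 Ctrl (log2FC 0.40, SE 0.0586, adjusted p = 7.66e-05). With Myc it had 201 and 204 CPM in KO1 and 152 and 138 CPM in KO2 (log2FC 0.48, SE 0.0599, adjusted p = 1.42e-05). Mvd and Idi1, enzymes of the mevalonate pathway, had log2FC of 0.62 and 0.49 with Ctrl and 0.57 and 0.47 with Myc. The call with Myc was lost for Mvd without KO2 Myc replicate 2, and for Idi1 without KO1 Myc replicate 2 or KO2 Myc replicate 2. The values of Trim33-WT were not on one side, since Idi1 was lower with Ctrl (63.4 and 57.6 CPM) and Msmo1 was between KO1 and KO2 (315 and 292 CPM).

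**Figure D4:**
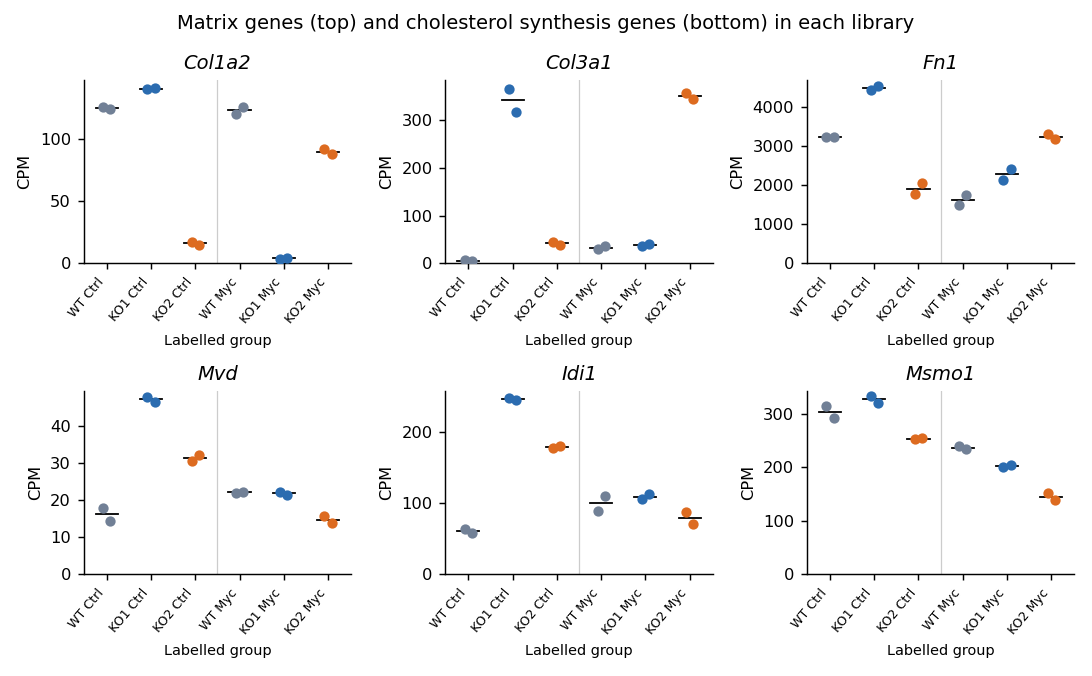
CPM of 3 matrix genes (top row) and 3 cholesterol synthesis genes (bottom row), from 0, in the 2 libraries of each labelled group, as points with the mean as a line, and the Ctrl and Myc vectors separated by a grey line. Col1a2, Col3a1 and Fn1 are higher in KO1 than KO2 with Ctrl and lower with Myc, while Mvd, Idi1 and Msmo1 are higher in KO1 with both.

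Genes outside this list were also called in the same direction with both vectors. Higher in KO1 with both vectors were Ccl7, a monocyte chemokine, with 23.9 and 23.4 CPM against 11.3 and 10.6 CPM with Ctrl and 20.4 and 19.9 CPM against 10.2 and 13.5 CPM with Myc (log2FC 1.14 and 0.76), and Wnt7b (0.61 and 0.50). Col8a1 (0.44 and 1.03) was a collagen that kept its direction, a call lost with Ctrl without KO2 Ctrl replicate 1. Higher in KO2 with both were C130074G19Rik (log2FC -0.80 and -0.79) and Id2, an inhibitor of basic helix-loop-helix factors (-0.38 and -0.43). The call of Id2 was lost with Ctrl without KO1 Ctrl replicate 1 or KO2 Ctrl replicate 1, and with Myc without KO1 Myc replicate 2 or KO2 Myc replicate 1. The 36 genes became 12 to 21 without any one of the 8 libraries, each of which moves the count by over 1.5 times. Their values were 13 and 15 without KO1 Ctrl replicate 1 and 2, 12 and 14 without KO2 Ctrl replicate 1 and 2, 19 and 18 without KO1 Myc replicate 1 and 2, and 21 and 17 without KO2 Myc replicate 1 and 2.

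The Zscan4 genes, markers of a transient 2-cell-like state of mouse embryonic stem cells, differed with Myc and not with Ctrl. Of 12 genes of this list, 9 (75%) were higher in KO2 Myc and 1 (8.33%) in KO1 Myc, beside 9.35% and 9.14% of all genes (median log2FC -3.14). With Ctrl 1 was called, higher in KO2 (8.33%, the same share as over all genes). Zscan4f had 12.7 and 10.8 CPM in KO2 Myc and 1.05 and 1.32 CPM in KO1 Myc (log2FC -3.30, SE 0.184, adjusted p = 9.21e-10), and with Ctrl 4.95 and 4.47 CPM in KO1 and 4.31 and 3.96 CPM in KO2 (log2FC 0.21, adjusted p = 0.389). The difference between the vectors was called for Zscan4f and Zscan4c. In Trim33-WT the order of the vectors was the reverse of KO2, at 16.6 and 17.4 CPM with Ctrl and 0.658 and 0.904 CPM with Myc. Zscan4 genes are near-identical copies, and their single values are uncertain.

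The differences were not spread evenly along the genome. On mm9, 12213 genes could be placed. Splits of chromosomes X and 10 were chosen after the values were seen, so the counts on either side are descriptions. From 120 Mb of chromosome X to its end (143 genes, chrX:120217104-166443668) the median log2FC was -0.92 with Ctrl (interquartile range -1.17 to -0.68), and 111 genes (77.6%) were higher in KO2 and 2 in KO1. With Myc the median was 0.99, and 114 genes (79.7%) were higher in KO1 and 2 in KO2. Over all placed genes, 10.3% were higher in KO1 and 8.41% in KO2 with Ctrl, and 9.32% and 9.6% with Myc. The other 283 X genes had a median of 0.01 with each vector. Of them, 12.4% were higher in KO1 and 8.83% in KO2 with Ctrl, and 11.0% and 8.83% with Myc. Relative to the mean of Trim33-WT Ctrl, the distal X median was -0.74 and -0.66 (log2) in the KO1 Ctrl libraries and -0.73 and -0.74 in KO2 Myc, and 0.26, 0.24, 0.23 and 0.28 in KO2 Ctrl and KO1 Myc. It was 0.07 and 0.16 in Trim33-WT Myc. The lower level thus lay in KO1 Ctrl and KO2 Myc, and the other 2 groups lay slightly above Trim33-WT Ctrl. Placed genes outside X and chromosome 10 had medians of 0.06 and 0.07 in the KO1 Myc libraries on this scale. Against Trim33-WT Myc, the fitted distal X median was 0.07 for KO1 Myc and -0.89 for KO2 Myc. Huwe1, a ubiquitin ligase of this stretch, had 187 and 196 CPM in KO1 Ctrl and 420 and 451 CPM in KO2 Ctrl (log2FC -1.16, with Myc 1.07), and Phf8, a histone demethylase, had log2FC of -0.73 and 1.00, though Huwe1 and Phf8 were picked after their values were seen.

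Chromosome 10 held a smaller shift in the other direction. From 50 Mb (459 genes, chr10:50312475-128398044) the median log2FC was 0.31 with Ctrl and -0.27 with Myc. With Ctrl 199 genes (43.4%) were higher in KO1 and 10 in KO2, beside 10.3% and 8.41% of all placed genes. With Myc 192 (41.8%) were higher in KO2 and 12 in KO1, beside 9.6% and 9.32% of all placed genes. The 125 genes before 50 Mb had medians of 0.00 and 0.04. Of them, 9.6% were higher in KO1 and 6.4% in KO2 with Ctrl, and 10.4% and 7.2% with Myc. Relative to Trim33-WT Ctrl the distal median was 0.25 and 0.27 for KO1 Ctrl, 0.24 and 0.25 for KO2 Myc, and 0.01 to 0.02 in KO2 Ctrl and KO1 Myc. It was 0.11 and 0.08 in Trim33-WT Myc. Against Trim33-WT Myc, the fitted median was -0.06 for KO1 Myc and 0.21 for KO2 Myc. Chromosome 1 had a median of 0.14 with Ctrl and -0.19 with Myc. Timp3, Hsp90b1 and Bicc1 lie in the distal part of chromosome 10 and Rragb and Nxf3 in distal X. The differences of Bicc1 and Nxf3, 4.40 and -4.70, were far outside the interquartile ranges of these stretches (0.15 to 0.50 and -1.17 to -0.68). DNA copy number was not measured. Xist, the RNA of X inactivation, lies in the rest of X and was higher in KO1 Ctrl (448 and 489 CPM) than in KO2 Ctrl (278 and 249 CPM), with log2FC of 0.86 with Ctrl and -0.71 with Myc, and it was also chosen after its values were seen.

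**Figure D5:**
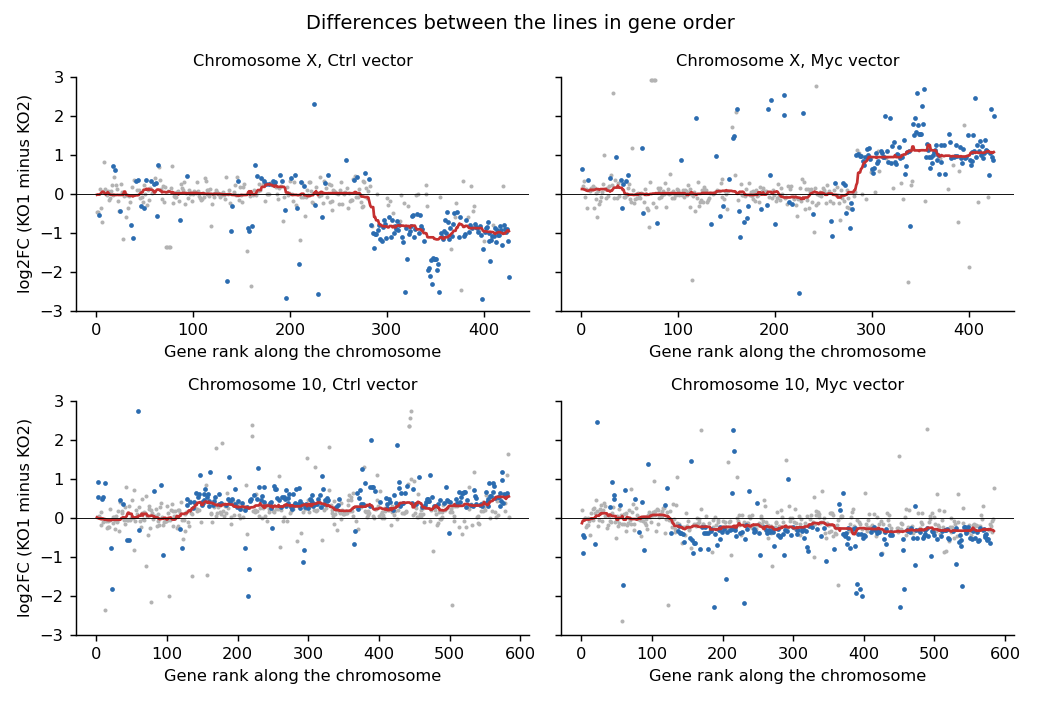
Log2FC of KO1 minus KO2 by gene rank along chromosomes X (top) and 10 (bottom) with the Ctrl (left) and Myc (right) vector, with called genes in blue, others in grey and the running median in red, and values beyond 3 in either direction outside the axes. The red line steps down near the 283rd X gene with Ctrl and up with Myc, and it rises after the first 125 genes of chromosome 10 with Ctrl and falls with Myc.

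Called neighbours also ran in short blocks. There were 24 runs of at least 5 consecutive called genes of one direction with Ctrl, holding 166 genes, of which 9 lay on X (70 genes) and 6 on chromosome 10 (36 genes). The longest run outside these held 12 Pcdhb genes on chromosome 18, clustered protocadherins of neuronal adhesion, higher in KO1 with a median log2FC of 2.30 (with Myc -1.56). Next were 8 genes around the Sprr2 cluster on chromosome 3, cornified envelope proteins, higher in KO2 (median -2.33, with Myc 1.13). The shared direction with Ctrl follows from how runs were chosen. With Myc, 9 of the 12 and 5 of the 8 were called in the opposite direction, beside 1265 of the 2398 genes called with Ctrl. A run of 5 genes on chromosome 14, all of them predicted genes or cDNA clones, had a median of -5.78 with Ctrl and 5.66 with Myc. Tandem copies share sequence, so members of these runs are not independent.

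Genes of the pathways under study showed small differences between the lines. Trim24 and Trim28 did not pass with either vector, with log2FC of 0.07 and -0.13 with Ctrl and 0.06 and 0.08 with Myc. Myc was 185 and 196 CPM in KO1 Ctrl and 213 and 222 CPM in KO2 Ctrl (log2FC -0.16, adjusted p = 0.0403), and both lines were below Trim33-WT at 415 and 420.5 CPM. With the Myc vector it was 624 and 655 CPM in KO1 and 462 and 503 CPM in KO2 (log2FC 0.40, SE 0.0544, adjusted p = 3.03e-05). Mki67, a proliferation marker, had log2FC of -0.47 (adjusted p = 0.00112) with Ctrl, a call lost without KO1 Ctrl replicate 1, KO2 Ctrl replicate 1 or KO2 Ctrl replicate 2, and -0.05 with Myc, which did not pass. E2f1 had 39.8 and 42.9 CPM in KO1 Ctrl and 55.5 and 55.5 CPM in KO2 Ctrl (log2FC -0.40, adjusted p = 0.00105), a call lost without KO1 Ctrl replicate 1, KO2 Ctrl replicate 1 or KO2 Ctrl replicate 2. E2f4 and Recql did not pass with either vector, with log2FC of -0.02 and -0.04 with Ctrl and -0.01 and -0.21 with Myc. Nras, the transgene's gene, had log2FC of 0.18 with Ctrl and -0.18 with Myc and did not pass with either, although the difference between the vectors did (adjusted p = 0.00588). Cdkn2a had log2FC of 0.47 with Ctrl, a call lost without any one of the 4 Ctrl libraries, and -0.32 with Myc, which did not pass.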

How the data were processed

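RNA-seq of p19/Nras cells was deposited as a table of whole-number counts per gene, mapped to mm9 with STAR 2.5.4 according to the submitters' processing notes, which also name bcl2fastq 2.20, FastQC 0.11.5 and edgeR 3.26.8. The counting tool is not given in the sources used here, and the deposited counts, although named normalized, were whole numbers with unequal totals. Sources differ on the RNA and library kits. Tables of the authors' own fold changes and p-values were not used.

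Counts of 12 libraries in 6 groups were scaled by TMM (factors 0.958 to 1.019) and fitted with edgeR 4.0.16 (quasi-likelihood, R 4.3.3). The filter filterByExpr removed 0 genes. A gene was called where its p, adjusted by Benjamini and Hochberg over all 13107 genes, was under 0.01. CPM values use library totals without TMM. In simulated KO1 against KO2 Ctrl data of 12832 genes, 95 of 100 genes changed by 1 log2 unit and 74 of 100 changed by 0.5 were recovered, and 0 unchanged genes were called. The simulation took each gene's spread from the fitted trend and changed only these genes. Its recovery and lack of false calls therefore need not hold for the real data. The mean squared difference between replicates was 2.15 to 4.40 times that of counting noise, so none were taken as one library deposited again. The replicate numbers did not pair samples (correlations of deviations 0.0512 and -0.162 between the lines).

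Named genes were a set of Trim33-related genes, genes with at most 3 counts in both libraries of one line, and the leading called members of each list. Also named were the called genes with the largest differences per direction, among those with no overlap of the lines and a mean of at least 5 CPM. Other genes, among them Huwe1, Phf8, Xist, Acta2, Afp, Col6a3 and Tgfbi, were added for description with their values known. The members and lists were chosen with earlier results of these data known. Alternatives were other sets of libraries, a replicate block, DESeq2 1.42.0, other scaling, filters and thresholds, and leaving out each library. Some single genes are not reported here. The common biological coefficient of variation was 0.0498.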

Additional observations from a re-analysis of the deposited data

Results flagged for a closer look

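The difference between the libraries labelled KO1 and KO2 was not the same with the Ctrl and the Myc vector in 3453 genes, by the interaction term of the fit (edgeR quasi-likelihood, adjusted p under 0.01). The values that follow are the KO1 minus KO2 log2FC with Myc minus that with Ctrl, and only genes that passed this test are listed. Among genes chosen for their link to the study, the change was 1.29 for Trim33, 0.57 for Myc, 0.48 for E2f1, -0.37 for Nras and -0.79 for Cdkn2a.

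Genes higher in KO1 with Ctrl had negative values, -9.08 for Ptk7, -6.86 for Lcn2, -8.36 for Prelp, -8.72 for Clca3a1, -7.58 for Ank2, -10.65 for Bicc1, -8.38 for Igf2bp3, -6.69 for Pcdhb14 and -5.03 for Pilra. Matrix and adhesion genes were of the same sign, -7.72 for Adgrg6, -7.68 for Col1a2, -6.25 for Col3a1 and -5.24 for Mgp. Genes higher in KO2 with Ctrl had positive values, 14.22 for Plb1, 11.60 for Naip1, 9.54 for Naip6, 12.49 for Pnma5, 10.28 for Nxf3, 8.99 for Lncenc1, 7.83 for Aqp8, 8.99 for Cd177 and 6.34 for Gm364. In the zinc finger cluster the values were 9.93 for Entrez gene 19715, 9.91 for Rex2, 9.94 for Zfp980, 9.42 for Zfp600 and 8.50 for Zfp534. For the Zscan4 genes, which differed with Myc, they were -3.52 for Zscan4f and -3.36 for Zscan4c.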

How the results depend on the processing

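No count or named gene was reversed under the alternatives run, but the balance of directions was: with library totals only, 48% of the genes called with Ctrl were higher in KO1 against 54.5% with TMM, and the median log2FC over all genes was -0.009 against 0.018. With each comparison fitted on its own 4 libraries, 4029 genes were called with Ctrl and 101 in the same direction with both vectors, and with the 8 knockout libraries alone 1005 in the mean of both vectors and 89 in the same direction. With the 6 libraries of one vector, 3818 were called with Ctrl and 1532 with Myc. With at least 5 CPM in every library, 1585 were called with Ctrl, 1587 with Myc, 311 in the mean and 757 in opposite directions, from fewer genes tested. Requiring an absolute log2FC of at least 1 left 654, 719, 1455 (difference between the vectors), 48 (mean), 1 (same direction) and 420 (opposite). An adjusted p under 0.05 gave 3748, 3790, 1139 (mean), 119 (same) and 1934 (opposite). DESeq2 called 2010 with Ctrl and 2000 with Myc. Leaving out one library gave 1383 to 2310 with Ctrl, 1519 to 2183 with Myc, 178 to 266 in the mean and 12 to 21 in the same direction, and opposite calls stayed at 898 to 994. The cause of these shifts was not tested.

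The replicate numbers did not pair the samples. With a replicate block, 2458 genes were called with Ctrl, 2495 with Myc, 3525 for the difference between the vectors, 493 in the mean, 35 in the same direction and 1299 in opposite directions. A block with the KO2 Myc numbers crossed, chosen after seeing the data, gave 838 in the mean and 65 in the same direction. With 2 libraries a group, simulated differences of 0.5 log2 units were recovered less often than those of 1, and genes of a few counts carry wide intervals.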

Other observations

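A further experiment of the series treated Trim33-WT or Trim33-KO cells of the p19/Nras line with hydroxyurea or left them untreated, and its labels do not say which knockout line was used. Its 8 libraries held 2315327 to 3082202 counts, and 50 of 73 named genes and 6 of the 17 genes near 0 in one line were in its table. Trim33 was 43.0 to 51.5 CPM in the 4 Trim33-KO libraries and 127 to 145 CPM in the 4 Trim33-WT libraries. In untreated Trim33-KO cells, Rex2 was 252 and 180 CPM and Zfp980 was 202 and 152 CPM, where untreated Trim33-WT cells had 104 and 70.7 CPM of Rex2 and 72.1 and 61.9 CPM of Zfp980. Plb1 was 32.3 and 34.8 CPM in untreated Trim33-KO cells, and Slc9b1 was 14.4 and 20.7 CPM. Both were thus present in them. Col3a1, the type III collagen chain, was 0.696 to 1.97 CPM in the 4 Trim33-KO libraries and 34.6 to 47.1 CPM in the 4 Trim33-WT libraries. Ptk7 was 9.58 and 9.85 CPM in untreated Trim33-KO cells and 10.4 and 9.18 CPM in untreated Trim33-WT cells. These levels come from a separate count table and were not tested against the lines.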
